A study of Homo sapiens with 15 samples.

Results

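The genes described here are chemokines, cytokines and feedback inhibitors that are widely used as readouts of the transcription factor NF-kB. The list holds 10 genes, IL6, CXCL8, CXCL1, CXCL2, CXCL3, CCL2, CCL20, LIF, TNFAIP3 and NFKBIA, and they were chosen by name, as the rows of the deposited expression table whose Ensembl identifier maps to one of these symbols. Of the 10 genes, 9 were found among the 16604 genes of the table, and CCL20 was not analysed here. RNA was sequenced from 5 human cell lines of high-grade serous ovarian cancer, with 3 samples per line, 15 in all, which the submitters describe as biological replicates. Ovcar4Parental is the platinum-sensitive OVCAR4 line. Ov4Cis is cisplatin resistant and Ov4Carbo is carboplatin resistant, and each was made by growing cells in rising concentrations of its drug until the IC50 had increased. Ov4Carbo4 and Ov4Carbo7 are carboplatin-resistant lines that were each grown from a single Ov4Carbo cell, so each stands for 1 clone. All 5 lines were grown in DMEM with fetal bovine serum, and the labels name no drug in the medium at harvest and no cytokine stimulus.

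NF-kB is a family of transcription factor dimers that IkB proteins hold in the cytoplasm. Signals from tumour necrosis factor, interleukin-1 or Toll-like receptors activate a kinase complex that marks IkB for degradation, and the released dimers enter the nucleus and bind kappaB sites in promoters. Among their best-known targets are the neutrophil-attracting CXC chemokines, the monocyte-attracting chemokine CCL2 and the cytokines IL6 and LIF. NFKBIA, which encodes IkB-alpha, and TNFAIP3, which encodes the ubiquitin-editing enzyme A20, are targets that switch the pathway off again. Ovarian cancer cells are known to secrete several of these factors, IL6 and CXCL8 above all.

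The promoters of the genes are shown first because short kappaB-type motifs lie close to the start of nearly all of them. RefSeq promoter sequence (build GRCh38.p14) was at hand for 8 of the 10 listed genes, without CCL2 and LIF, and the 120 bases before the start are printed 5′ to 3′ on the gene's strand for the 7 of these that were measured. Capitals mark matches to GGNNNTTCC on either strand.
CXCL8: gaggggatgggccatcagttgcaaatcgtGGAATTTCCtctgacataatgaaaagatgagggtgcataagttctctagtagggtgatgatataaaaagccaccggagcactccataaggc
CXCL1: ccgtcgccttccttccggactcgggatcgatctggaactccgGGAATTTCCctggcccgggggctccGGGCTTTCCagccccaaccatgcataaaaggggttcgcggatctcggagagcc
CXCL2: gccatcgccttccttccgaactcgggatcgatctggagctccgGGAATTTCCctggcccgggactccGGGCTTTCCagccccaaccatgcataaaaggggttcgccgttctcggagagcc
CXCL3: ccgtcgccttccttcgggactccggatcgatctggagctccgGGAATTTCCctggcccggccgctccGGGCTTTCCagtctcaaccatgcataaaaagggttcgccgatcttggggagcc
IL6: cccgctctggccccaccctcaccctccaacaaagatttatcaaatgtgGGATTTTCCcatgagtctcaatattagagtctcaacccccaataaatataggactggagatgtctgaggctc
TNFAIP3: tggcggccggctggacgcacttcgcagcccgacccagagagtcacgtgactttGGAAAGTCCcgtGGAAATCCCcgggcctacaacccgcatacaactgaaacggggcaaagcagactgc
NFKBIA: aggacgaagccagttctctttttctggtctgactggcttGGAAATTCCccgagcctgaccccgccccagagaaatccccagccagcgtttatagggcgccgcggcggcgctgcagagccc

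The windows lie at chr4:73740449-73740568 on the plus strand (CXCL8), chr4:73869273-73869392 on the plus strand (CXCL1), chr4:74099196-74099315 on the minus strand (CXCL2) and chr4:74038690-74038809 on the minus strand (CXCL3). Those of the other genes are chr7:22727080-22727199 on the plus strand (IL6), chr6:137867139-137867258 on the plus strand (TNFAIP3) and chr14:35404750-35404869 on the minus strand (NFKBIA). Over the 250 bases before the start and on both strands, GGNNNTTCC was found in 8 of 8 listed genes with an entry, CCL20 among them, against 17.1% of 35116 RefSeq promoters. The tighter form GGANNTTCC, whose matches are a subset of the former, was found in 7 of 8, all but CCL20, against 3.84% of the promoters. The match lay 72 to 64 bases before the start in IL6, 91 to 83 in CXCL8, 78 to 70 in CXCL1 and CXCL3, and 77 to 69 in CXCL2. CXCL1, CXCL2 and CXCL3 shared a further GGNNNTTCC match at 53 to 45 bases, and their windows resemble each other over most of their length. The AP-1 motif TGANTCA was found in 1 of 8, CXCL8, at 137 to 131 bases before the start, against 6.57% of promoters, and the TATA motif TATAAA in 3 of 8 against 10.7%. A motif match describes the sequence and is not evidence of binding. As the genes were chosen as known NF-kB readouts, their high share of kappaB-type motifs is no independent support for control by NF-kB.

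The authors normalized by conditional quantiles and deposited log2 RPKM (read number relative to gene length and to the total of the library), so that 1 unit is a doubling. The median of every sample was 2.77 and the lowest value of a sample ran from -8.18 to -7.68. Sequencing depth per sample is not known from these values, and no counting error can be given. Replicate 1 of Ov4Carbo belongs by its title to the number series of the Ov4Carbo4 and Ov4Carbo7 samples, whereas replicates 2 and 3 belong to that of the parental and Ov4Cis samples. Of the 9 genes described, 8 lay above their Ov4Carbo mean in replicate 1, against 3 in replicate 2 and 3 in replicate 3. The labels do not call the series a batch. Apart from Ov4Carbo, title series and line cannot be told apart, and values with a term for the series, which rest on the 3 Ov4Carbo samples alone, are given where they change a call. PAX8, a transcription factor of the fallopian tube and ovarian serous lineage, lay between 5.66 and 6.87 in all 15 samples, while WT1, another serous marker, was at -0.98 or lower in all of them. The epithelial genes KRT7, KRT19, EPCAM and MUC16 were lowest in Ov4Cis, where KRT7 lay at -0.13, -1.06 and -0.52 against 8.11 to 8.43 in the parental samples. Other markers of the same list ran higher in Ov4Cis than in the parental samples. These were MECOM (7.34 to 7.43 against 6.27 to 6.76), WT1 (-1.85 to -0.98 against -6.37 to -3.74) and, with overlap, SOX17 (7.18 to 8.12 against 6.55 to 7.28). Of 16 leukocyte markers only CD14 and S100A9 had a row. The log2 of their summed RPKM was 1.41 to 2.55 in the parental samples, 0.04 to 1.09 in Ov4Cis and 0.58 to 1.01 in Ov4Carbo7. In Ov4Carbo4 it was -1.16 to -0.50 and in Ov4Carbo -1.31 to -1.22. The high parental sum came from S100A9 (2.38, 1.11 and 1.85). CD14 was -0.62, -1.03 and -1.28 in the parental samples and was highest in Ov4Carbo7 (0.72, 0.87 and 0.15). For 5 of 9 fibroblast markers the log2 of the summed RPKM was 2.14 to 3.87 over all lines. For 3 of 6 endothelial markers it was 5.01 to 5.35 in Ov4Cis and 4.37 to 4.65 in Ov4Carbo4, against 2.10 to 3.36 in the remaining lines. CDH5 made up most of that sum, at 4.98 to 5.29 in Ov4Cis and 4.31 to 4.59 in Ov4Carbo4. KDR was lower in Ov4Carbo4 (-4.27, -3.33 and -3.35) than in the parental samples (-2.41, -1.17 and -2.07). VWF did not differ among the lines by limma's F-test (adjusted p 0.118). Any part of these genes in the results was not tested. Of 12 ovarian and epithelial markers 12 had a row. By the rule given below, 8 were called lower and 1 higher in Ov4Cis against the parental line, with 7.41% and 8.46% of all genes. In Ov4Carbo4 5 were lower and 1 higher, with 7.7% and 7.43% of all genes. In Ov4Carbo7 6 were lower and 0 higher, with 7.75% and 9.26%, and in Ov4Carbo 1 was lower and 1 higher, with 6.93% and 5.76%. The summed level of the 12 on the log2 scale was 9.99 to 10.2 in Ovcar4Parental and 8.96 to 9.25 in Ov4Cis. It was 9.25 to 9.42 in Ov4Carbo, 9.44 to 9.58 in Ov4Carbo4 and 9.01 to 9.06 in Ov4Carbo7.

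The single-cell line Ov4Carbo4 had the lowest mean of the 5 lines for 7 of the 9 genes, and its CXCL8, CXCL1, CXCL2, CXCL3 and IL6 lay below every sample of the other 4 lines. Against the parental line, 8 of the 9 genes were lower in Ov4Carbo4 and 0 were higher. The other single-cell line, Ov4Carbo7, had only 1 gene called, LIF, which was higher. A gene was called where the limma p, adjusted over all 16604 genes by the Benjamini-Hochberg method, was under 0.05 and the log2 fold change was at least 1 in either direction. For comparison, 7.7% of all genes were called lower in Ov4Carbo4 and 7.43% higher. The samples are bulk RNA, so fewer cells that express a gene and less of its RNA per cell cannot be told apart.

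**Figure D1:**
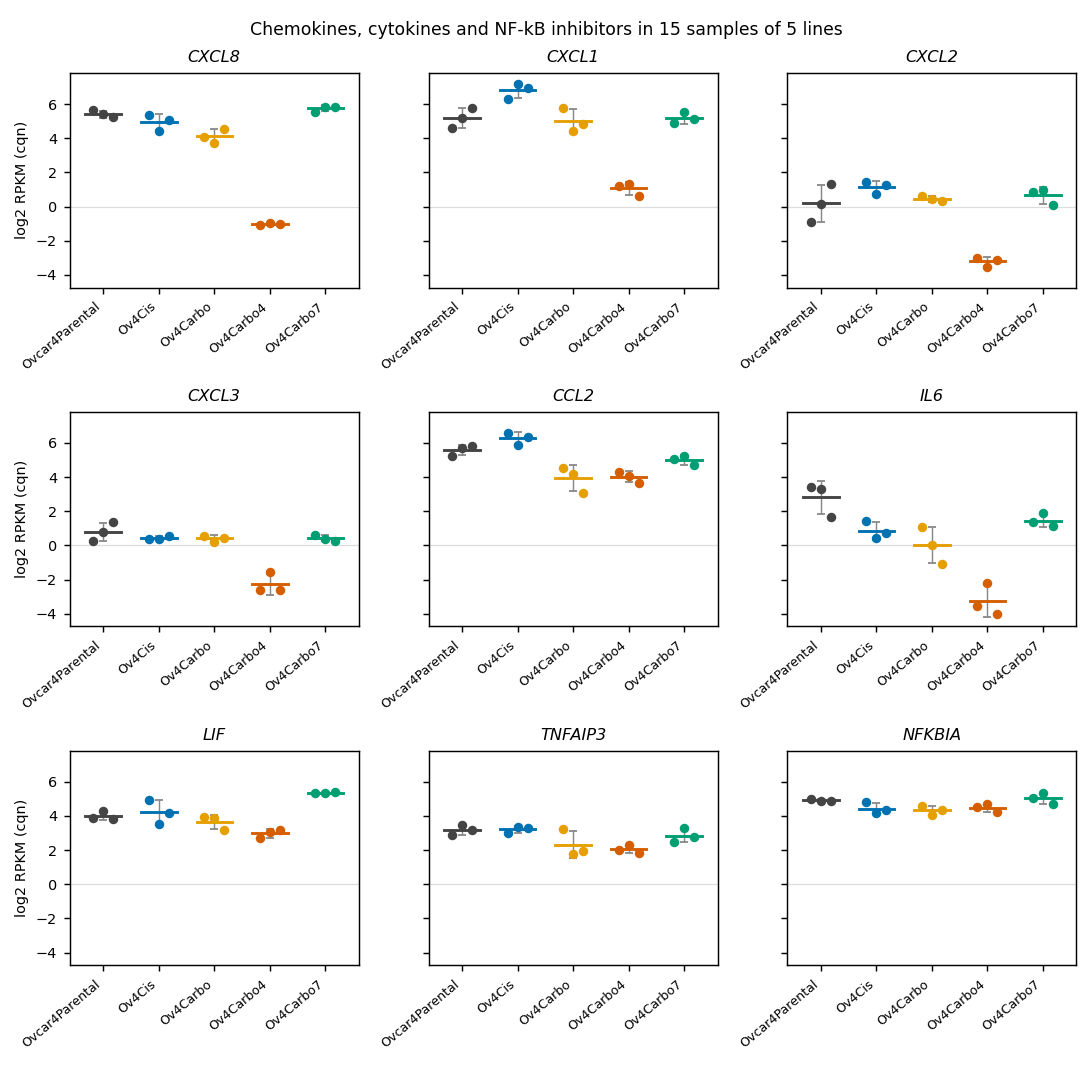
Log2 RPKM (vertical axis, same scale in each panel) of the 9 genes in the 3 samples of each line (points, replicates 1 to 3 from left to right), with the line mean (bar) and SD (error bar). Ov4Carbo4 stands below all other samples for CXCL8, CXCL1, CXCL2, CXCL3 and IL6, whereas NFKBIA spans only 0.71 log2 units between its highest and lowest line mean.

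CXCL8 (ENSG00000169429, chromosome 4), or interleukin-8, draws neutrophils through the receptors CXCR1 and CXCR2. It measured log2 RPKM 5.63, 5.40 and 5.22 in the parental samples, 5.39, 4.45 and 5.08 in Ov4Cis, and 4.09, 3.73 and 4.57 in Ov4Carbo. In the single-cell lines it measured -1.09, -0.95 and -1.05 in Ov4Carbo4 and 5.54, 5.85 and 5.85 in Ov4Carbo7. The 3 Ov4Carbo4 samples thus lay close together (SD 0.07) and were far below the other 12. CXCL8 fell by 6.45 on the log2 scale in Ov4Carbo4 against the parental line (SE 0.24, adjusted p 4.21e-09), an 87.2-fold difference, from a mean of 42.9 RPKM to 0.49 RPKM (n = 3 each). With 1 RPKM added before the logarithm the fall was -4.87. In Ov4Carbo it fell by 1.29 (SE 0.24, adjusted p 0.00147), with no overlap of the samples. In Ov4Cis the difference from the parental line was -0.44 (adjusted p 0.17) and in Ov4Carbo7 0.33 (adjusted p 0.289), and neither was called.

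CXCL1 (ENSG00000163739, chromosome 4), the chemokine also known as GRO-alpha, acts on CXCR2. It measured log2 RPKM 4.58, 5.19 and 5.75 in the parental samples, 6.32, 7.17 and 6.92 in Ov4Cis, and 5.76, 4.42 and 4.82 in Ov4Carbo. In Ov4Carbo4 it measured 1.20, 1.34 and 0.64, and in Ov4Carbo7 4.87, 5.55 and 5.11. CXCL1 was the only one of the 9 genes called higher in Ov4Cis, where all 3 samples lay above every sample of the other lines, and Ov4Carbo4 lay below them all. The rise in Ov4Cis was 1.63 (SE 0.38, adjusted p 0.00454), from a mean of 38.1 RPKM to 115 RPKM. The fall in Ov4Carbo4 was -4.11 (SE 0.38, adjusted p 4.69e-06), to 2.13 RPKM. Ov4Carbo differed from the parental line by -0.17 (adjusted p 0.753) and Ov4Carbo7 by 0.00 (adjusted p 0.994).

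CXCL2 (ENSG00000081041) and CXCL3 (ENSG00000163734), GRO-beta and GRO-gamma, are close paralogs of CXCL1 on chromosome 4 that act on the same receptor. CXCL2 measured log2 RPKM -0.89, 0.13 and 1.31 in the parental samples, 1.42, 0.72 and 1.23 in Ov4Cis, and 0.64, 0.42 and 0.30 in Ov4Carbo. It measured -2.99, -3.52 and -3.12 in Ov4Carbo4 and 0.88, 0.98 and 0.10 in Ov4Carbo7. Only Ov4Carbo4 was set apart, and the parental samples, with an SD of 1.10, spread more widely than the samples of the 3 remaining lines together. The fall in Ov4Carbo4 was -3.39 (SE 0.43, adjusted p 6.27e-05), and -1.01 after adding 1 RPKM (adjusted p 0.0028). Ov4Cis differed from the parental line by 0.94 (adjusted p 0.109) and Ov4Carbo7 by 0.47 (adjusted p 0.413). Without parental replicate 3, the highest, these became 1.503 (adjusted p 0.00501) and 1.03 (adjusted p 0.0322), so both calls depend on that sample.

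CXCL3 measured log2 RPKM 0.27, 0.78 and 1.35 in the parental samples, 0.39, 0.37 and 0.53 in Ov4Cis, and 0.57, 0.22 and 0.46 in Ov4Carbo. It measured -2.63, -1.59 and -2.64 in Ov4Carbo4 and 0.60, 0.37 and 0.28 in Ov4Carbo7. The means of Ov4Cis, Ov4Carbo and Ov4Carbo7 lay within 0.02 log2 units of each other, and Ov4Carbo4 alone was separate. The fall in Ov4Carbo4 was -3.08 (SE 0.29, adjusted p 5.39e-06), and -1.19 after adding 1 RPKM (adjusted p 1.13e-05). The longest open reading frames of CXCL1, CXCL2 and CXCL3 in GENCODE release 29 were 90.7% to 94.4% identical, against 52.5% to 54.1% with CXCL8. Of the 50-base stretches of the CXCL1 transcript, 5.73% also occurred in CXCL2 and 0.573% in CXCL3, and 4.62% of those of CXCL2 occurred in CXCL3. How reads that fit several of these genes were counted is not given in the sources used here, so the split between them is uncertain.

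CCL2 (ENSG00000108691, chromosome 17), or MCP-1, recruits monocytes through CCR2. It measured log2 RPKM 5.22, 5.73 and 5.80 in the parental samples, 6.59, 5.89 and 6.32 in Ov4Cis, and 4.50, 4.20 and 3.06 in Ov4Carbo. It measured 4.29, 4.09 and 3.65 in Ov4Carbo4 and 5.07, 5.24 and 4.69 in Ov4Carbo7. Here Ov4Carbo4 was no lower than the population it came from: the 2 lines overlapped and differed by 0.09 (SE 0.33, adjusted p 0.85). CCL2 fell by 1.66 in Ov4Carbo against the parental line (SE 0.33, adjusted p 0.00251) and by 1.57 in Ov4Carbo4 (SE 0.33, adjusted p 0.0026). With the title series term the Ov4Carbo4 value was -2.45 (adjusted p 0.00684). The difference in Ov4Cis was 0.69 (adjusted p 0.132), although its 3 samples lay above the 3 parental ones.

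IL6 (ENSG00000136244, chromosome 7) encodes interleukin-6, which signals through gp130 and STAT3. It measured log2 RPKM 3.43, 3.32 and 1.69 in the parental samples, 1.40, 0.41 and 0.72 in Ov4Cis, and 1.06, 0.03 and -1.06 in Ov4Carbo. It measured -3.52, -2.23 and -4.01 in Ov4Carbo4 and 1.36, 1.88 and 1.13 in Ov4Carbo7. The parental line was the highest, and each resistant line except Ov4Carbo7 lay wholly below it. The fall was -6.07 in Ov4Carbo4 (SE 0.60, adjusted p 8.95e-06), -2.80 in Ov4Carbo (SE 0.60, adjusted p 0.00378) and -1.97 in Ov4Cis (SE 0.60, adjusted p 0.0219). The mean went from 7.996 RPKM in the parental line to 0.121 RPKM in Ov4Carbo4, and after adding 1 RPKM the fall there was -2.87.

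The call of IL6 in Ov4Cis rests on several samples. It was lost without parental replicate 1 (-1.67, adjusted p 0.0826), parental replicate 2 (-1.72, adjusted p 0.08), Ov4Cis replicate 2 (-1.75, adjusted p 0.0765) or Ov4Cis replicate 3 (-1.91, adjusted p 0.062). In Ov4Carbo7 IL6 differed from the parental line by -1.36 (adjusted p 0.089) and was not called. It was called lower there without parental replicate 3 (-1.92, adjusted p 0.0263), with the title series term (-2.93, adjusted p 0.0484), after adding 1 RPKM (-1.12, adjusted p 0.0161) or 0.1 RPKM (-1.33, adjusted p 0.0489), and with the replicate block (adjusted p 0.0379). The SD of IL6 within a line was 0.98 in the parental samples and 1.06 in Ov4Carbo, and only that of CXCL2 in the parental line, 1.10, was larger among the 9 genes.

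LIF (ENSG00000128342, chromosome 22) encodes leukaemia inhibitory factor, another gp130 cytokine. It measured log2 RPKM 3.88, 4.27 and 3.82 in the parental samples, 4.95, 3.55 and 4.17 in Ov4Cis, and 3.91, 3.89 and 3.20 in Ov4Carbo. It measured 2.69, 3.07 and 3.19 in Ov4Carbo4 and 5.33, 5.33 and 5.42 in Ov4Carbo7. LIF moved in opposite directions in the single-cell lines: every Ov4Carbo7 sample was above all others and every Ov4Carbo4 sample below all others, if narrowly, as Ov4Carbo replicate 3 measured 3.20. Against the parental line it rose by 1.37 in Ov4Carbo7 (SE 0.30, adjusted p 0.00287) and fell by 1.01 in Ov4Carbo4 (SE 0.30, adjusted p 0.0182). With the title series term neither was called, at 1.00 (adjusted p 0.195) and -1.37 (adjusted p 0.0831). The fall was also lost without parental replicate 2 (-0.87, adjusted p 0.0705) or Ov4Carbo4 replicate 1 (-0.86, adjusted p 0.0713), and its size dropped under 1 after adding 1 RPKM (-0.92) or 0.1 RPKM (-0.998).

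Of the feedback inhibitors, TNFAIP3 (ENSG00000118503, chromosome 6) measured log2 RPKM 2.87, 3.49 and 3.19 in the parental samples, 2.99, 3.35 and 3.30 in Ov4Cis, and 3.22, 1.80 and 1.94 in Ov4Carbo. It measured 2.00, 2.30 and 1.84 in Ov4Carbo4 and 2.49, 3.27 and 2.78 in Ov4Carbo7. Replicate 1 of Ov4Carbo lay with the parental samples and its other replicates with Ov4Carbo4. TNFAIP3 fell by 1.14 in Ov4Carbo4 against the parental line (SE 0.33, adjusted p 0.0155). That call was lost without parental replicate 2 (-0.98, adjusted p 0.0616) or Ov4Carbo4 replicate 3 (-1.04, adjusted p 0.0568), and its size dropped to -0.98 after adding 1 RPKM. In Ov4Carbo the difference was -0.86 (adjusted p 0.0605), and without Ov4Carbo replicate 1 it was called at -1.31 (adjusted p 0.00144). The title series term gave -2.48 in Ov4Carbo4 (adjusted p 8.78e-04) and -1.68 in Ov4Carbo7 (adjusted p 0.0094), the latter a call that was not made without the term.

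NFKBIA (ENSG00000100906, chromosome 14) measured log2 RPKM 4.998, 4.86 and 4.88 in the parental samples, 4.80, 4.15 and 4.34 in Ov4Cis, and 4.58, 4.04 and 4.36 in Ov4Carbo. It measured 4.51, 4.70 and 4.24 in Ov4Carbo4 and 5.07, 5.34 and 4.70 in Ov4Carbo7. It was the steadiest of the 9 genes and was called in 0 of the 10 comparisons between lines, as every difference was smaller than 1 log2 unit, although limma gave an unadjusted p under 0.05 in 5 of the 10 and an adjusted p under 0.05 in 4. Its value in Ov4Carbo4 against the parental line was -0.43 (SE 0.20, adjusted p 0.116), and the largest difference from the parental line was -0.59 in Ov4Carbo (SE 0.20, adjusted p 0.0418).

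**Figure D2:**
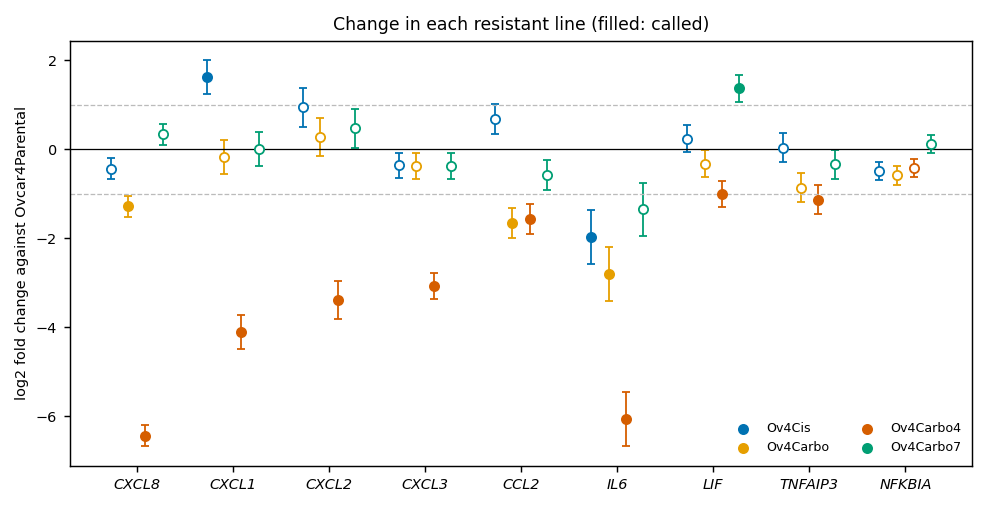
Log2 fold change of each gene in each resistant line against Ovcar4Parental (vertical axis, points with SE; filled points are called, dashed lines mark 1 and -1). The 8 filled Ov4Carbo4 points run from -6.45 for CXCL8 to -1.01 for LIF, and the only filled points above 0 are CXCL1 in Ov4Cis and LIF in Ov4Carbo7.

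By line, the 4 comparisons with Ovcar4Parental, which share its samples, gave different counts. In Ov4Cis 1 of 9 genes was higher and 1 lower, with 8.46% and 7.41% of all genes called higher and lower. In Ov4Carbo 0 were higher and 3 lower (CXCL8, CCL2 and IL6), with 5.76% and 6.93% of all genes. The background for Ov4Carbo7, with LIF higher and 0 genes lower, was 9.26% higher and 7.75% lower. The shares in Ov4Cis and Ov4Carbo7 were close to those of all genes for so few members, and that of Ov4Carbo4, 8 of 9, was not. The median log2 fold change of the 9 genes was -3.08 in Ov4Carbo4, -0.59 in Ov4Carbo, 0.03 in Ov4Cis and 0.00 in Ov4Carbo7, against 0.07, 0.03, 0.04 and 0.02 for all genes. Without replicate 1 of Ov4Carbo, 4 genes were lower in Ov4Carbo and 8 in Ov4Carbo4. With the title series term, 4 were lower in Ov4Carbo and 7 in Ov4Carbo4, while in Ov4Carbo7 0 were higher and 2, IL6 and TNFAIP3, lower.

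The single-cell lines were also compared with Ov4Carbo, the population they came from. In Ov4Carbo4, 5 of the 9 genes were lower than in Ov4Carbo and 0 higher, with 6.64% and 7.58% of all genes. These were CXCL8 (-5.16, SE 0.24, adjusted p 3.18e-08), CXCL1 (-3.94), CXCL2 (-3.66), IL6 (-3.26) and CXCL3 (-2.70). After adding 1 RPKM, IL6 (-0.91) and CXCL3 (-0.94) dropped under the fold limit. TNFAIP3 was called lower there with the title series term (-1.17, adjusted p 0.0137). In Ov4Carbo7, 3 of the 9 were higher than in Ov4Carbo and 0 lower, with 7.72% and 5.62% of all genes.

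Those 3 genes were LIF (1.69, SE 0.30, adjusted p 9.99e-04), CXCL8 (1.62, SE 0.24, adjusted p 2.78e-04) and CCL2 (1.08, SE 0.33, adjusted p 0.0244). The call of CCL2 was lost without Ov4Carbo replicate 3 (0.64, adjusted p 0.0816), Ov4Carbo7 replicate 1 (1.04, adjusted p 0.0602) or Ov4Carbo7 replicate 2 (0.96, adjusted p 0.0836), in a fit of the 2 lines alone (adjusted p 0.0988) and with the title series term (0.49, adjusted p 0.466). IL6 was 1.45 higher (adjusted p 0.0785) and was called without Ov4Carbo replicate 1 (1.97, adjusted p 0.0218) and with the replicate block (adjusted p 0.0335).

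Ov4Carbo4 and Ov4Carbo7 belong to the same title series, so their comparison does not cross the series. In Ov4Carbo7 6 of the 9 genes were higher than in Ov4Carbo4 and 0 lower, with 11.1% and 9.86% of all genes called higher and lower. CXCL8 differed most, by 6.78 (SE 0.24, adjusted p 3.02e-09), a 109.7-fold difference. IL6 was higher by 4.71 (SE 0.60), CXCL1 by 4.12 (SE 0.38), CXCL2 by 3.86 (SE 0.43), CXCL3 by 2.70 (SE 0.29) and LIF by 2.38 (SE 0.30). After adding 1 RPKM CXCL3 came to 0.94, under the fold limit. CCL2 missed the fold limit at 0.99 (adjusted p 0.026), and was called without Ov4Carbo4 replicate 1 (1.13) or Ov4Carbo7 replicate 3 (1.14). TNFAIP3 was 0.80 higher (adjusted p 0.0585) and NFKBIA 0.55 (adjusted p 0.0397), and neither was called.

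Ov4Cis was compared with the 3 carboplatin-resistant lines as well. Against Ov4Carbo, CXCL1 (1.80, SE 0.38, adjusted p 0.00298) and CCL2 (2.35, SE 0.33, adjusted p 1.96e-04) were higher and 0 were lower, with 7.88% and 5.9% of all genes. CXCL8 was 0.84 higher and was called without Ov4Cis replicate 2 (1.10) or Ov4Carbo replicate 3 (1.06), and TNFAIP3 was 0.89 higher and was called without Ov4Carbo replicate 1 (1.34, adjusted p 0.00105). Against Ov4Carbo4, 8 of the 9, all but NFKBIA, were higher and 0 lower, with 9.12% and 7.72% of all genes, and the LIF difference of 1.24 dropped to 0.87 without Ov4Cis replicate 1. CXCL3 there came to 0.95 after adding 1 RPKM.

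Against Ov4Carbo7, CXCL1 (1.62, SE 0.38) and CCL2 (1.27, SE 0.33) were higher in Ov4Cis and LIF was lower (-1.14, SE 0.30), with 7.46% of all genes higher and 7.2% lower. LIF dropped to -0.80 without Ov4Cis replicate 2, and with the title series term it was -0.77 (adjusted p 0.32), while TNFAIP3 was called higher (1.71, adjusted p 0.0087). CXCL1 and CCL2, ligands of CXCR2 and CCR2, were thus higher in Ov4Cis than in each of the 3 carboplatin-resistant lines.

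Each of the 9 genes differed among the 5 lines by limma's F-test at an adjusted p under 0.05, as did 76.9% of all genes. The lines were then ordered by mean, and neighbours were said to differ where the adjusted p of their contrast was under 0.05, with no limit on the fold. For IL6 the order was Ovcar4Parental, Ov4Carbo7, Ov4Cis, Ov4Carbo and Ov4Carbo4, and only the last step, 3.26, was a difference (adjusted p 0.00112). For CXCL8 it was Ov4Carbo7, Ovcar4Parental, Ov4Cis, Ov4Carbo and Ov4Carbo4, with differences between Ov4Cis and Ov4Carbo (0.84, adjusted p 0.0166) and between Ov4Carbo and Ov4Carbo4. For CXCL1 it was Ov4Cis, Ov4Carbo7, Ovcar4Parental, Ov4Carbo and Ov4Carbo4, and the first and last steps were differences. For CXCL2, in the order Ov4Cis, Ov4Carbo7, Ov4Carbo, Ovcar4Parental and Ov4Carbo4, and for CXCL3, in the order Ovcar4Parental, Ov4Cis, Ov4Carbo7, Ov4Carbo and Ov4Carbo4, only the last step was.

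The remaining genes had flatter orders. CCL2 ran from Ov4Cis through Ovcar4Parental, Ov4Carbo7 and Ov4Carbo4 to Ov4Carbo, with a difference only between Ov4Carbo7 and Ov4Carbo4 (0.99). LIF ran from Ov4Carbo7 through Ov4Cis, Ovcar4Parental and Ov4Carbo to Ov4Carbo4, with a difference only between Ov4Carbo7 and Ov4Cis (1.14, adjusted p 0.00973). For TNFAIP3, from Ov4Cis through Ovcar4Parental, Ov4Carbo7 and Ov4Carbo to Ov4Carbo4, and for NFKBIA, from Ov4Carbo7 through Ovcar4Parental, Ov4Carbo4 and Ov4Cis to Ov4Carbo, 0 of 4 neighbouring pairs passed the limit. Among all genes an adjusted p under 0.05 was reached by 36.2% in Ov4Cis against the parental line, 34% in Ov4Carbo, 39.7% in Ov4Carbo4 and 42.6% in Ov4Carbo7. It was reached by 42.2% between Ov4Carbo4 and Ov4Carbo, 36.6% between Ov4Carbo7 and Ov4Carbo and 51.1% between Ov4Carbo7 and Ov4Carbo4. Between Ov4Cis and Ov4Carbo it was 34.2%, between Ov4Cis and Ov4Carbo4 44% and between Ov4Cis and Ov4Carbo7 39.2%.

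CXCL8, CXCL1, CXCL2 and CXCL3 belong to the CXC chemokine gene cluster of chromosome 4. The order of its genes in RefSeq was CXCL8, CXCL6, PF4V1, CXCL1, PF4, PPBP, CXCL5, CXCL3 and CXCL2, and 6 of these 9 genes were in the expression table. All 6 had their lowest line mean in Ov4Carbo4. CXCL5, a CXCR2 ligand, had means ± SD (n = 3) of 3.30 ± 0.22 in the parental line, 5.69 ± 0.54 in Ov4Cis, 1.98 ± 1.64 in Ov4Carbo, 5.93 ± 0.22 in Ov4Carbo7 and -1.76 ± 0.50 in Ov4Carbo4. CXCL6, which acts on CXCR1 and CXCR2, had -0.48 ± 0.56, 1.69 ± 0.25, -2.19 ± 1.01, -1.19 ± 0.24 and -4.99 ± 0.28 in the same order.

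Against the parental line CXCL5 fell by 5.07 in Ov4Carbo4 (SE 0.60, adjusted p 3.76e-05) and rose in Ov4Cis (2.39, SE 0.60) and Ov4Carbo7 (2.63, SE 0.60). CXCL6 fell by 4.51 in Ov4Carbo4 (SE 0.41, adjusted p 4.70e-06) and by 1.71 in Ov4Carbo, and rose by 2.17 in Ov4Cis. In Ov4Carbo, CXCL5 was 3.87 in replicate 1 and 0.98 and 1.09 in the others. Leaving Ov4Carbo4 aside, the line means were spread more widely at CXCL5 and CXCL6 than at CXCL2 and CXCL3, where they spanned less than 1 log2 unit, a difference that was not tested.

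**Figure D3:**
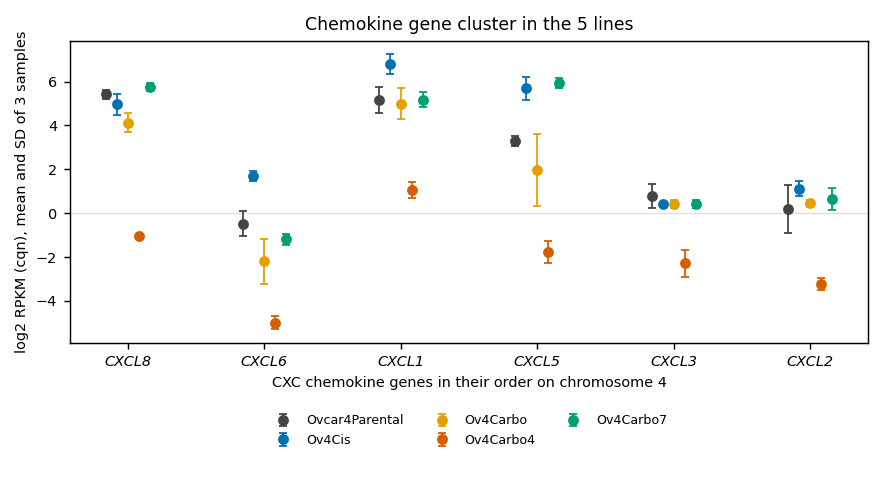
Mean log2 RPKM (vertical axis; error bars are the SD of 3 samples) of the 6 measured CXC chemokine genes of the chromosome 4 cluster in RefSeq gene order (horizontal axis, not to distance). Ov4Carbo4 is the lowest line at each gene, and Ov4Cis and Ov4Carbo7 are the highest at CXCL5.

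Lists of other genes of the pathway were counted in the same 4 comparisons. Only genes with a row were counted. These were 25 of 26 listed kinases and adaptors, 24 of 31 receptors and ligands upstream of NF-kB and 8 of 28 other chemokines. They were 27 of 34 other NF-kB targets and 14 of 20 receptors of the described genes with their signalling genes. The remaining lists were complete. Among all genes the called shares, higher and lower, were 8.46% and 7.41% in Ov4Cis, 5.76% and 6.93% in Ov4Carbo, 7.43% and 7.7% in Ov4Carbo4, and 9.26% and 7.75% in Ov4Carbo7, and the medians of all genes were those given above. Of 14 NF-kB subunits and inhibitors, 0 were higher and 5 lower in Ov4Carbo4, 1 and 3 in Ov4Cis, 0 and 0 in Ov4Carbo, and 1 and 0 in Ov4Carbo7, with median log2 fold changes of -0.30, -0.06, -0.10 and 0.13. In Ov4Carbo, 2 of the 14 had an unadjusted limma p under 0.05 and 1 an adjusted p under 0.05, with a change under the fold limit. The 5 of 14 in Ov4Carbo4 stand against 7.7% of all genes called lower there, and the 1 of 14 in Ov4Carbo7 is about the 9.26% called higher. RELA, the transactivating p65 subunit, and NFKB1, which encodes p105 and its product p50, were not called in any of the 4 lines, with RELA at -0.32 (adjusted p 0.0632) and NFKB1 at -0.28 (adjusted p 0.215) in Ov4Carbo4. By limma's F-test RELA did differ among the lines (adjusted p 0.00638), with means from 4.45 in Ov4Carbo4 to 5.05 in Ov4Carbo7. NFKB1 did not (adjusted p 0.355). NFKB2, which encodes p100 and its product p52 of the alternative pathway, fell in Ov4Carbo4 (-1.08, SE 0.18, adjusted p 5.49e-04), as did TNIP1, a partner of A20 (-1.12, SE 0.17, adjusted p 2.29e-04). NFKBIZ, an atypical nuclear IkB protein that IL6 induction by several stimuli is known to need, rose in Ov4Cis (1.83, SE 0.31) and Ov4Carbo7 (1.00) and fell in Ov4Carbo4 (-2.64, SE 0.31, adjusted p 3.31e-05). RELB, a subunit of the alternative pathway, fell in Ov4Cis (-1.32) and Ov4Carbo4 (-1.11), the nuclear cofactor BCL3 in Ov4Carbo4 (-1.14), and the inhibitor NFKBIE in Ov4Cis (-1.65). The count in Ov4Carbo4 dropped from 5 to 2 without parental replicate 1 and to 3 without parental replicate 2, and that in Ov4Carbo7 to 0 without parental replicate 1 or Ov4Carbo7 replicates 1 or 2. In Ov4Carbo the count rose to 1 without parental replicate 3 or Ov4Carbo replicate 3.

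Of 25 kinases and adaptors of the pathway, 1 was higher and 0 lower in Ov4Cis, 1 and 2 in Ov4Carbo, 2 and 2 in Ov4Carbo4, and 2 and 1 in Ov4Carbo7, with medians of 0.00, 0.04, -0.06 and 0.09. These counts are at or near the shares of all genes, 8.46% higher in Ov4Cis and 7.43% higher and 7.7% lower in Ov4Carbo4 for example, so they say nothing particular of the list, and the genes named are single genes of it. BIRC3, the ubiquitin ligase cIAP2 and itself a known NF-kB target, fell in Ov4Carbo4 (-2.34, SE 0.62) and rose in Ov4Carbo7 (2.12, SE 0.62). RBCK1, a subunit of the linear ubiquitin ligase, rose in Ov4Carbo7 (1.49), where the receptor-associated kinase IRAK4 fell (-1.001). The adaptor TRAF5 rose in Ov4Cis (1.07), Ov4Carbo (1.30) and Ov4Carbo4 (1.34), and in Ov4Cis it was lost without parental replicate 3 or Ov4Cis replicate 1, which left 0 genes called.

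Of 24 receptors and ligands upstream of NF-kB, 7 were higher and 4 lower in Ov4Cis, 0 and 5 in Ov4Carbo, 3 and 8 in Ov4Carbo4, and 4 and 2 in Ov4Carbo7, with medians of 0.15, 0.02, -0.60 and 0.37. The 8 of 24 lower in Ov4Carbo4 stand against 7.7% of all genes, and the 7 of 24 higher in Ov4Cis against 8.46%, while the 2 of 24 lower in Ov4Carbo7 are near the 7.75% of all genes. The interleukin-1 receptor IL1R1 fell in Ov4Cis (-2.28), Ov4Carbo (-2.98) and Ov4Carbo4 (-3.28, SE 0.26, adjusted p 1.43e-06), and had 5.74 ± 0.10 in the parental line and 5.23 ± 0.04 in Ov4Carbo7. The decoy receptor IL1R2 fell in all 4 lines, from -1.54 in Ov4Carbo7 to -5.85 in Ov4Carbo4. The cytokine TNF fell in Ov4Cis (-3.16), Ov4Carbo4 (-3.55) and Ov4Carbo7 (-1.46). IL18, a cytokine of the interleukin-1 family, fell in Ov4Carbo4 (-3.89, SE 0.28) and rose in Ov4Carbo7 (1.08). Between the single-cell lines 13 of the 24 were higher in Ov4Carbo7 and 1 was lower, with a median of 1.27 against -0.05 for all genes, of which 11.1% were higher and 9.86% lower.

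Of 8 other chemokines, 4 were higher and 2 lower in Ov4Cis, 2 and 3 in Ov4Carbo, 2 and 5 in Ov4Carbo4, and 3 and 2 in Ov4Carbo7, with medians of 0.86, -1.19, -1.42 and 0.43. The 5 of 8 lower in Ov4Carbo4 include the cluster genes CXCL5 and CXCL6 and stand against 7.7% of all genes. CXCL12, the CXCR4 ligand, rose in all 4 lines, by 2.58 in Ov4Carbo4 (SE 0.44) and by 1.44 to 2.08 in the others. CXCL16, a membrane-bound chemokine, fell in all 4, most in Ov4Cis (-4.62, SE 0.32). Not every chemokine was therefore low in Ov4Carbo4.

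Of 27 other NF-kB targets, 3 were higher and 6 lower in Ov4Cis, 3 and 3 in Ov4Carbo, 3 and 8 in Ov4Carbo4, and 8 and 4 in Ov4Carbo7, with medians of -0.21, -0.22, -0.41 and 0.07. The 8 of 27 lower in Ov4Carbo4 stand against 7.7% of all genes and the 8 of 27 higher in Ov4Carbo7 against 9.26%, whereas the 3 of 27 higher in Ov4Cis and Ov4Carbo4 and in either direction in Ov4Carbo are near the shares of all genes (8.46%, 7.43%, 5.76% and 6.93%). The complement component C3 had 6.63 ± 0.21 in the parental line and fell in Ov4Carbo4 (-3.63, SE 0.43, adjusted p 3.43e-05), as did the iron-binding lipocalin LCN2 (-3.97, SE 0.84). C3 rose in Ov4Carbo7 (1.27). The soluble pattern receptor PTX3 rose in all 4 lines, by 4.03 in Ov4Cis and 2.98 in Ov4Carbo4. TNFAIP6, a hyaluronan-binding protein, rose in Ov4Cis (5.90), Ov4Carbo (2.68) and Ov4Carbo7 (8.24) from a parental mean of -5.23, close to the lowest values of the table, and in Ov4Carbo it was 0.44 in replicate 1 and -3.45 and -4.65 in the others. Between the single-cell lines 11 of the 27 were higher in Ov4Carbo7 and 3 lower, against 11.1% and 9.86% of all genes.

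Of 14 receptors of these chemokines and cytokines with their signalling genes, 3 were higher and 0 lower in Ov4Cis, 1 and 0 in Ov4Carbo, 2 and 3 in Ov4Carbo4, and 3 and 1 in Ov4Carbo7, with medians of 0.34, 0.03, -0.29 and 0.43. The 1 of 14 higher in Ov4Carbo is near the 5.76% of all genes called higher, and the 3 of 14 lower in Ov4Carbo4 stand against 7.7%. The count in Ov4Carbo rose from 1 to 2 without its replicate 1. SOCS3, a feedback inhibitor that gp130 cytokines induce, measured 5.49 ± 0.08 in the parental line and 3.51 ± 0.02 in Ov4Carbo4, a fall of 1.98 (SE 0.14, adjusted p 6.49e-07). OSMR, the oncostatin M receptor and a gp130 partner, fell in Ov4Carbo4 (-2.11) and rose in Ov4Carbo7 (1.30). CNTFR, the ciliary neurotrophic factor receptor, was highest in Ov4Carbo4, where it rose by 6.41 (SE 0.32, adjusted p 4.17e-08).

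Of 16 AP-1 and mRNA decay regulators, which act on many of the same genes, 3 were higher and 0 lower in Ov4Cis, 0 and 1 in Ov4Carbo, 1 and 5 in Ov4Carbo4, and 1 and 4 in Ov4Carbo7, with medians of -0.07, 0.11, -0.52 and -0.01. The counts of 0 and 1 of 16 in Ov4Carbo and of 1 of 16 higher in Ov4Carbo4 and Ov4Carbo7 are near or below the shares of all genes (5.76%, 6.93%, 7.43% and 9.26%), and the 5 of 16 lower in Ov4Carbo4 stand against 7.7%. The AP-1 genes FOS and FOSB rose in Ov4Cis (1.80 and 2.999) and fell in Ov4Carbo7 (-2.15 and -2.07). The SE of FOSB in Ov4Cis was 0.77 (adjusted p 0.00842, limma). FOSB spread widely in the parental samples (0.90, 2.26 and 4.61), and its Ov4Carbo7 samples (0.97, 1.01 and -0.42) overlapped them. ZFP36, or tristetraprolin, which destabilizes cytokine transcripts, fell in Ov4Carbo7 (-2.14, SE 0.25). CEBPD, a transcription factor that binds the IL6 promoter, fell in Ov4Carbo4 (-2.36, SE 0.33) and rose in Ov4Carbo7 (2.34, SE 0.33). The count in Ov4Cis dropped from 3 to 1 without parental replicate 1. In Ov4Carbo it was 0 without parental replicate 2 or Ov4Carbo replicates 2 or 3 and 2 without parental replicate 3, and in Ov4Carbo7 it dropped from 5 to 3 without any one of 9 samples, parental replicates 2 and 3 and Ov4Carbo7 replicates 2 and 3 among them.

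FOS, an immediate early gene, also varied within lines, at 3.98, 4.63 and 6.13 in the parental samples and 4.02, 5.39 and 3.75 in Ov4Carbo4. Of the 9 genes described here, 8 lay above their line mean in Ov4Carbo4 replicate 2 and 8 in Ov4Carbo replicate 1. Any part of this variation in the differences between lines was not tested.

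**Figure D4:**
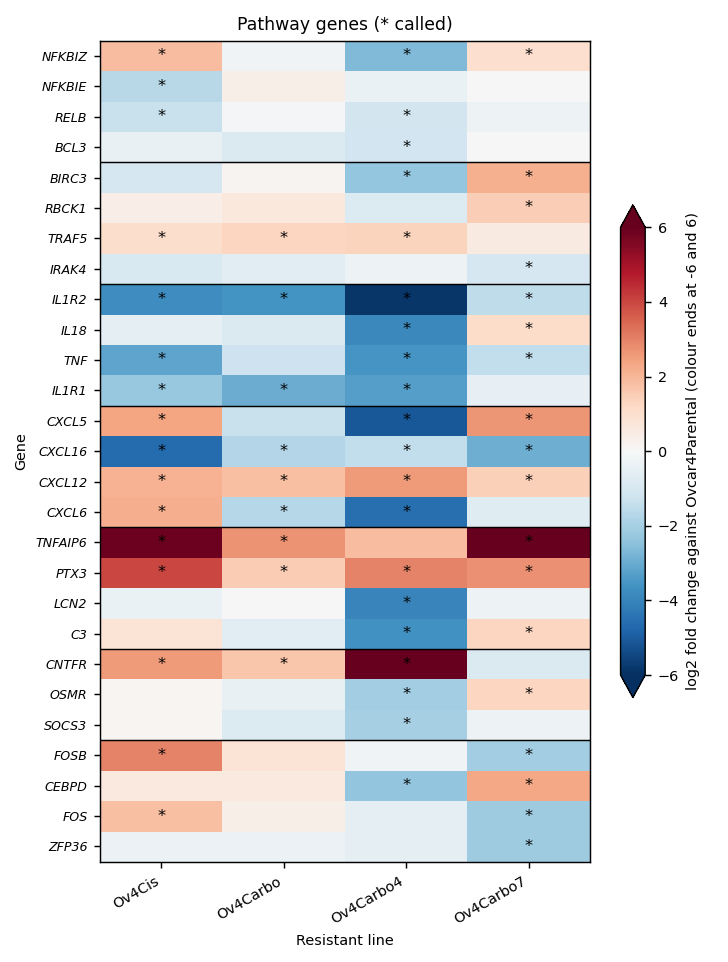
Log2 fold change against Ovcar4Parental (colour, ending at -6 and 6) of the 27 named genes of the 7 pathway lists (rows, lists separated by lines) in the 4 resistant lines (columns); stars mark called genes. NFKBIZ, BIRC3, IL18, CXCL5, C3, OSMR and CEBPD have stars of opposite colour in Ov4Carbo4 and Ov4Carbo7.

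Across the 15 samples, the 9 genes resembled each other to different degrees. Pearson correlations of log2 RPKM are given as a description, since samples of a line share that line and the wide gap between Ov4Carbo4 and the rest carries much of each value. CXCL1 and CXCL2 were the most alike of the 9 (r 0.941), followed by CXCL8 and CXCL3 (r 0.936), and IL6 was closest to CXCL8 (r 0.899). NFKBIA was the least like the others, and its nearest gene among the 9 was LIF (r 0.582). CCL2 and TNFAIP3 were nearest to each other (r 0.804).

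Among 12795 other genes with a symbol and a line mean of at least 1 (12796 for CXCL3, which has no such mean itself), some were closer still to each of the 9. CXCL8 was most like NNMT (r 0.989) and UQCRC1 (r 0.982), CXCL1 like GNAI2 (r 0.976) and CDC40 (r 0.972), CXCL2 like CHCHD4 (r 0.976) and TUSC2 (r 0.964), and CXCL3 like DPH3 (r 0.968) and ST6GALNAC3 (r 0.966). CCL2 was most like SSPN (r 0.940) and MAP7D2 (r 0.926). IL6 was most like MAGIX (r 0.953) and TPCN1 (r 0.948), and LIF like LDHA (r 0.961) and PDLIM5 (r 0.956). TNFAIP3 was most like DHRS4 (r 0.928) and GNPTAB (r 0.912), and NFKBIA like NPAS2 (r 0.896) and ABTB1 (r 0.885). Between 14 genes, for CXCL3, and 639, for LIF, were closer to a gene than its nearest of the 9.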

How the data were processed

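Polyadenylated RNA of cultured cells was sequenced, per the labels' protocols. The submitters' processing notes list BWA 0.7.15-r1140, HTSeq, hg19 and GRCh37. The authors deposited log2 RPKM values after conditional quantile normalization, a correction for the length and GC content of genes, with a threshold whose rule is not given in the sources used here. Symbols came from Ensembl identifiers (16448 of 16604 genes) and GENCODE release 29 (51 more).

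The deposited log2 values were fitted with limma 3.58.1 in R 4.3.3, with 1 coefficient per line over all 15 samples, and two-sided p-values of each of 10 contrasts were corrected over the 16604 genes (Benjamini-Hochberg). The model was tested on simulated data. The genes, the pathway lists and the tests were chosen with earlier results of these data known. Every listed gene is described. From each pathway list at most 4 genes are named, those with the largest fold change against the parental line among called genes whose samples do not overlap and whose higher mean is at least log2 RPKM 1, and other pathway genes named, RELA, NFKB1, NFKB2 and TNIP1, were chosen after their values were seen. A gene that this rule takes is counted in its list but not reported here by name. Promoters came from RefSeq (GRCh38.p14), and open reading frames were compared with Biopython 1.88. The alternatives were a variance trend, other scalings, pseudocounts of 1 and 0.1, a filter at mean log2 RPKM 1, a fit of the compared lines alone, an adjusted p under 0.01, a replicate block, a title series term and each sample left out.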

Additional observations from a re-analysis of the deposited data

Results flagged for a closer look

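For CXCL1, the effects against the parental line were called in opposite directions in Ov4Cis and Ov4Carbo4. The direct contrast between these lines was 5.74 on the log2 scale (SE 0.38, adjusted p 2.26e-07, limma). All 3 Ov4Cis samples lay above all 3 Ov4Carbo4 samples. For LIF, the effects against the parental line were called in opposite directions in Ov4Carbo7 and Ov4Carbo4. The direct contrast was 2.38 (SE 0.30, adjusted p 3.75e-05, limma), again with no overlap of the samples. With the title series term neither LIF effect against the parental line was called. Each direct contrast equals the difference of the effects by which its lines were picked, so its p is no separate support for them.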

How the results depend on the processing

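The 90 log2 fold changes of single genes had 2220 values under the alternatives. Of these, 2170 kept their side of the call, 30 lost the call and 20 gained it. A change of direction was counted only where the main or the alternative value was called, and 0 reversed. Differences that were not called could change sign. With each sample left out, CXCL1 in Ov4Carbo against the parental line ran from -0.55 to 0.12. Variance trend, quantile normalization and centring on the sample median changed 0 of the counts of called genes by more than 1.5 times. Genes called in the 10 contrasts (Ov4Cis, Ov4Carbo, Ov4Carbo4 and Ov4Carbo7 against the parental line, Ov4Carbo4 and Ov4Carbo7 against Ov4Carbo, Ov4Carbo7 against Ov4Carbo4, and Ov4Cis against Ov4Carbo, Ov4Carbo4 and Ov4Carbo7) numbered 2635, 2106, 2513, 2824, 2360, 2214, 3478, 2288, 2797 and 2434. With the filter, which kept 12037 genes and 6 of the 9 described, they numbered 988, 730, 971, 1134, 996, 851, 1645, 840, 1196 and 1041. With a pseudocount of 1 they numbered 1258, 790, 1053, 1294, 905, 823, 1746, 958, 1277 and 1104. With the filter, which leaves out CXCL2, CXCL3 and IL6, the described genes called were 1 in Ov4Cis against the parental line, 5 in Ov4Carbo4 against it, 2 between Ov4Carbo4 and Ov4Carbo, 3 between Ov4Carbo7 and Ov4Carbo4 and 5 between Ov4Cis and Ov4Carbo4. With a pseudocount of 1 they were 2 in Ov4Carbo7 against the parental line and 3 between Ov4Carbo4 and Ov4Carbo. In Ov4Carbo7 they were also 2 with a pseudocount of 0.1, the replicate block or the title series term, and in Ov4Cis 1 at an adjusted p under 0.01. With each sample left out they ranged from 1 to 3 in Ov4Cis and in Ov4Carbo7 against the parental line, and from 6 to 8 in Ov4Carbo4. In Ov4Carbo4 against the parental line, LIF and TNFAIP3 also lost their calls at an adjusted p under 0.01 (limma 0.0182 and 0.0155). They lost them as well with a pseudocount of 1 (-0.92 and -0.98). Of 875 counts over the pathway lists under the alternatives, a check chosen after seeing the data, 800 stayed within 1.5 times. The cause of these changes was not tested beyond the genes that the filter removes. Replicate numbers did not pair the samples: deviations from the line means of same-numbered samples correlated at -0.39 to 0.44 and over 0.1 in 11 of 30 pairs. The replicate block added IL6 to the calls in Ov4Carbo7 against the parental line (-1.36, adjusted p 0.0379) and against Ov4Carbo. The unknown depth limits the low values of CXCL2, CXCL3 and IL6 in Ov4Carbo4.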
